A study of Mus musculus with 6 samples.

Results

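Hyaluronan is a long unbranched sugar polymer that synthases at the cell membrane extrude directly out of the cell. Around the time of ovulation it fills the space between the cumulus cells that surround the oocyte, and accessory proteins cross-link it into an elastic matrix, a process called cumulus expansion. Granulosa cells (GCs), the somatic cells that line the follicle and from which the cumulus cells derive, make most of these components. The 10 genes described here are hyaluronan synthases (*Has1*, *Has2* and *Has3*), enzymes that cut hyaluronan (*Hyal1* and *Hyal2*), its cell surface receptor (*Cd44*), proteins that organize the cumulus matrix (*Tnfaip6* and *Ptx3*) and proteoglycans that bind hyaluronan (*Vcan* and *Acan*). They were chosen by gene symbol, and all 10 had a row among the 16300 genes with values.

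RNA-seq was done on 6 libraries of primary GCs from wild type C57BL/6J mice aged 8 to 9 weeks. The 3 control libraries came from cells kept in medium, and the 3 DHT libraries came from cells given 25 nM of the androgen dihydrotestosterone (DHT) for 24 h, a comparison that asks which transcripts respond to androgen in GCs. By the study's methods each library pooled the GCs of several mice, cultured first with serum and then without it, so both groups share the culture and the serum starvation. The labels name the cell type as granulosa cells but also describe RNA from whole ovary, and their protocol text gives the DHT treatment even for controls, so the groups were taken from the treatment that each sample lists.

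The values are normalized counts, that is, reads per gene divided by a size factor of the library. The sums of the steps in which the values of a library come, an estimate of its reads that the size factors themselves were not at hand to check, ran from 36111177 to 41928585. Changes are differences of log2(normalized count + 1) between DHT and control with the standard error (SE), tested with limma across 16292 genes. A gene was called where the Benjamini-Hochberg adjusted p reached 0.05 or less. By this rule 1063 genes were higher with DHT (6.52% of those tested) and 760 were lower (4.66%), 11.2% in either direction. When libraries were scaled to equal totals instead, the split turned to 907 higher and 1012 lower. Since these are bulk samples, fewer cells of a type and less RNA per cell cannot be told apart.

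Of 10 granulosa markers 9 had values, and *Cyp19a1*, the aromatase of GCs, was not analysed here. Their summed level was 208594 to 222357 normalized counts in control GCs and 228104 to 243719 with DHT, most of it from *Cyp11a1*, *Inha* and *Inhba*. *Fshr* and *Amh*, classical GC markers, were low, with 135 to 168 and 63.3 to 196 over the 6 libraries. Within this list *Cyp11a1* and *Hsd17b1*, enzymes of steroid synthesis, rose, while *Inha*, a subunit of inhibin, and *Foxl2*, a transcription factor of GC identity, fell, the latter by 0.15 on the log2 scale (adjusted p = 0.049 by limma). The endothelium markers (4 of 6 symbols with values) summed to 150 to 179 in control GCs and 141 to 199 with DHT. The leukocyte markers (4 of 7) summed to 471 to 546 and 362 to 605, and *Ptprc*, the pan-leukocyte marker, was low, at 8.47 ± 2.59 and 14.3 ± 2.00 (SD, n = 3), without overlap of the groups but not called (log2 fold change 0.72, adjusted p = 0.215 by limma). *Csf1r*, a receptor of macrophages, was the called gene of this list and fell from 102 ± 11.4 to 64.9 ± 5.73 (SD, n = 3; log2 fold change -0.64, adjusted p = 0.0270 by limma). *Lyz2* and *Cd68* had log2 fold changes of -0.11 and -0.07 and were not called. The theca and stroma markers (5 of 6) summed to 1972 to 2367 and 1664 to 2375, and the surface epithelium markers (7 of 7) to 4064 to 4755 and 3232 to 4352. The oocyte markers (6 of 7) ranged in sum from 280 to 752 in control GCs and from 34.9 to 531 with DHT, where DHT replicate 2 was far below the rest and had *Zp3* and *Oosp1*, an egg coat protein and an oocyte-secreted protein, at 0.

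Of the 10 genes only *Has2* passed the test, against 11.2% of all tested genes, and it rose. It was also called when an absolute log2 fold change above 1 was required in addition, a rule that 1.31% of all tested genes met. At an unadjusted p under 0.05 there were 3 of the 10 genes (*Has2*, *Ptx3* and *Acan*), against 25.2% of all tested genes. The same 3 were those whose control and DHT libraries did not overlap, which held for 30.6% of all tested genes. The median log2 fold change over the 10 was 0.09, against -0.01 over all genes tested. The 5 genes above zero were *Has2*, *Ptx3*, *Tnfaip6*, *Has3* and *Has1*, and the 5 below zero were *Hyal2*, *Hyal1*, *Cd44*, *Vcan* and *Acan*.

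**Figure D1:**
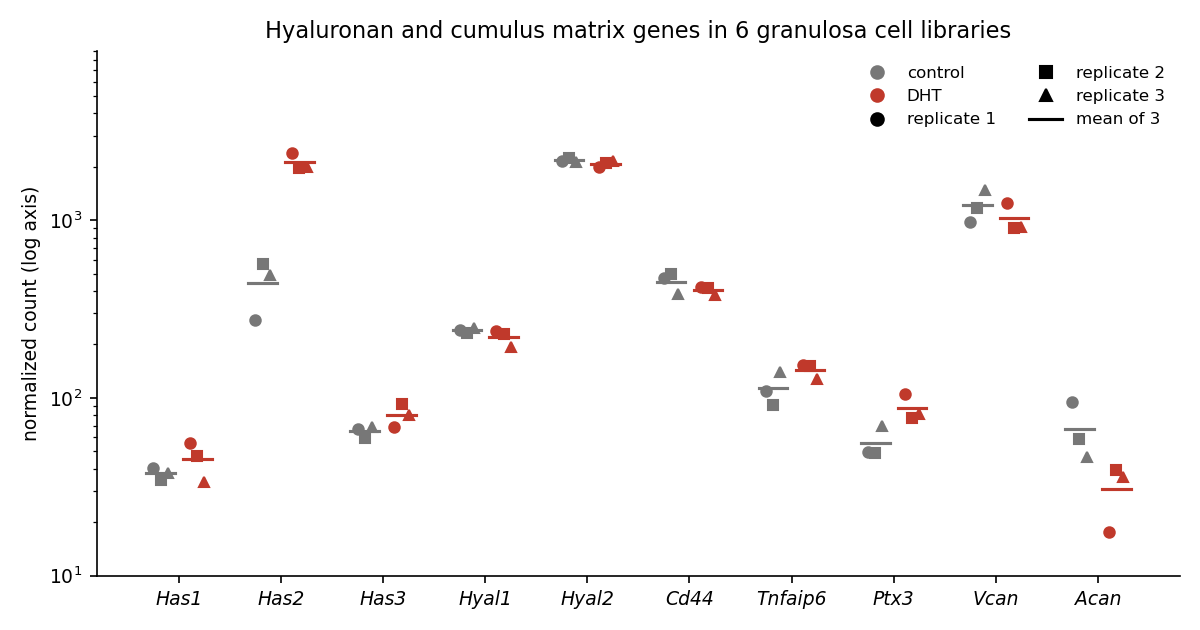
Normalized counts (log axis) of the 10 genes in each of the 6 libraries, with control in grey, DHT in red, a marker shape for each replicate number and a line at the mean of 3 libraries. The DHT libraries of Has2 (1957 to 2396) lie above its control libraries (273 to 569), Ptx3 and Acan are also separated by group, and the other 7 genes overlap.

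*Has2* (ENSMUSG00000022367; chromosome 15 of GRCm38, 56665627 to 56694539, minus strand) encodes the synthase known as the main source of hyaluronan in the expanding cumulus. Its normalized counts were 273, 569 and 492 in control replicates 1 to 3 and 2396, 1957 and 2008 in DHT replicates 1 to 3. Every DHT library was far above every control library, and the controls were the more uneven group, with the highest 2.08 times the lowest against 1.23 times with DHT. The mean rose from 445 ± 153 to 2120.4 ± 240.4 (SD, n = 3), which on the log2 scale was a change of 2.31 (SE 0.23, 95% confidence interval 1.80 to 2.83, adjusted p = 0.000405 by limma). This was the 10th largest rise of the 16292 genes tested. Without control replicate 1, the library with the lowest level, the change was 2.00 (adjusted p = 3.83e-05).

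*Has1* (ENSMUSG00000003665; chromosome 17, 17843323 to 17855205, minus strand) and *Has3* (ENSMUSG00000031910; chromosome 8, 106870242 to 106884566, plus strand) encode the other synthases of the family, and neither passed the test. *Has1* had 40.6, 34.4 and 38.0 normalized counts in the controls and 55.8, 46.9 and 33.7 with DHT. DHT replicate 3 was the lowest of all 6 libraries and DHT replicate 1 the highest, so the groups overlapped (log2 fold change 0.24, SE 0.23, adjusted p = 0.564 by limma). *Has3* had 67.3, 59.5 and 68.6 in the controls and 68.5, 92.7 and 80.5 with DHT. The highest control library was just above the lowest DHT library (log2 fold change 0.30, SE 0.17, adjusted p = 0.309 by limma). The 95% confidence intervals ran from -0.27 to 0.75 for *Has1* and from -0.08 to 0.67 for *Has3*, both below the lower bound for *Has2*.

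The coding sequences of the 3 synthases are related, so a stretch of 60 bases where they are closely alike is shown to let a reader see how far reads can separate them. It lies at chr15:56668223-56668282 (minus strand) in *Has2*, chr17:17844191-17844250 (minus strand) in *Has1* and chr8:106878211-106878270 (plus strand) in *Has3*, read from GRCm38 transcripts 5′ to 3′ in the coding direction, with capitals at bases that differ from *Has2*.
Has2: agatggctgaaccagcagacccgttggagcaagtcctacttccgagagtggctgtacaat
Has1: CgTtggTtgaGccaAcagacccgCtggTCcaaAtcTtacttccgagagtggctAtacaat
Has3: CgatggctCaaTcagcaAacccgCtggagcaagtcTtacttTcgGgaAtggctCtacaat
*Has1* differed from *Has2* at 11 of these bases and *Has3* at 10. Over the aligned coding sequence *Has2* was identical to *Has1* at 62.0% of bases and to *Has3* at 68.8%. The longest run of identical bases was 17 with *Has1* and 23 with *Has3*, against reads of 150 bases from each end of a fragment.

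Per kilobase of annotated exon, *Has2* was the leading synthase in every library. Its level was 64.5, 134 and 116 normalized counts per kb in the controls and 566, 462 and 474 with DHT, while *Has1* and *Has3* stayed between 7.47 and 14.5 in all 6 libraries. The *Has1* level and the shares depend on the length used. *Has1* has 4.52 kb of annotated exon but a coding transcript of 2.095 kb, against coding transcripts of 4.237 kb for *Has2* and 5.912 kb for *Has3*. *Has2* made up 76.8%, 88.8% and 85.8% of the summed synthase level in control replicates 1 to 3 and 96.1%, 94.9% and 95.9% in the DHT libraries. The share was higher in all 3 DHT libraries than in any control, at 95.6% ± 0.65 against 83.8% ± 6.28 (SD, n = 3), a difference of 11.8 percentage points with an exact two-sided permutation p of 0.1, the smallest that 3 against 3 libraries can give. As *Has1* and *Has3* were not called, the share largely restates the rise of *Has2* and is not a separate result. The summed level of the synthases went from 123 ± 35.1 to 523 ± 56.9 normalized counts per kb (SD, n = 3).

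**Figure D2:**
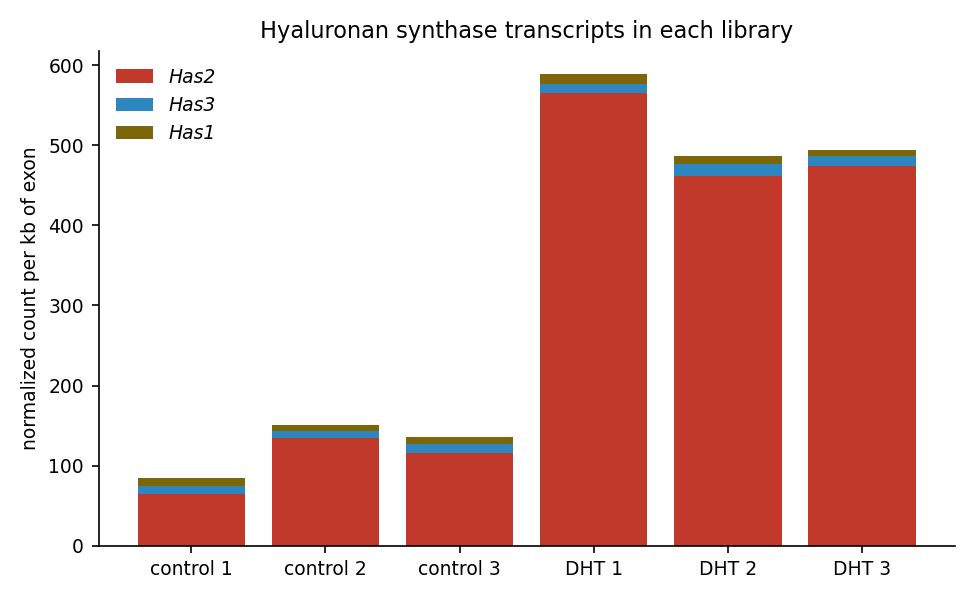
Stacked bars of the normalized count per kb of exon of Has2 (red), Has3 (blue) and Has1 (brown) in each library, starting at 0. Bars of the control libraries reach 84.0 to 151 and those of the DHT libraries 487 to 589, and Has2 fills most of every bar.

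Reads in overlapping exons were examined since the library kit does not mark strand and the strand setting of the counting is not given in the sources used here. *Has2os*, an antisense RNA, shares 182 bases (4.30%) of the *Has2* exons, and it had 9.89, 13.9 and 17.6 normalized counts in the controls and 23.5, 13.1 and 10.9 with DHT. These levels were low in all libraries and overlapped between groups. *Has3* shares 352 bases (5.52%) of its exons with *Chtf8* on the other strand, which had means of 5568 ± 238 and 5522 ± 118 normalized counts in control and DHT (SD, n = 3), far above *Has3*, and a log2 fold change of -0.01. The part of *Chtf8* reads in the *Has3* values was not tested.

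*Hyal2* (ENSMUSG00000010047; chromosome 9, 107567945 to 107572779, plus strand), a hyaluronidase anchored at the cell surface, was the most abundant of the 10 genes per kb in both groups. Its normalized counts were 2159, 2245 and 2138 in the controls and 2000.2, 2093 and 2167 with DHT. The groups overlapped, and the log2 fold change was -0.06 (SE 0.04, adjusted p = 0.422 by limma), with a 95% confidence interval from -0.16 to 0.04. *Hyal1* (ENSMUSG00000010051; chromosome 9, 107576927 to 107581710, plus strand), a lysosomal hyaluronidase, had 241, 233 and 246 in the controls and 238, 230.2 and 195 with DHT. DHT replicate 3 was the lowest library, while the others lay close together (log2 fold change -0.13, SE 0.10, adjusted p = 0.50 by limma). The count of *Hyal1* is uncertain, as 1920 bases (50.8%) of its annotated exons are shared with *Nat6* (also called *Naa80*) and 159 with *Hyal3* on the same strand. *Nat6* had means of 478 ± 59.2 and 462 ± 6.37 and *Hyal3* of 19.7 ± 7.61 and 20.0 ± 7.28 in control and DHT (SD, n = 3).

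*Cd44* (ENSMUSG00000005087; chromosome 2, 102811141 to 102901665, minus strand), the receptor through which cells hold and sense hyaluronan, had 472, 498 and 383 normalized counts in the controls and 422, 417 and 379.8 with DHT. All 3 DHT libraries lay below the middle of the control range, but control replicate 3 lay among them (log2 fold change -0.14, SE 0.10, adjusted p = 0.444 by limma).

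The proteins that tie hyaluronan chains together in the cumulus matrix had positive estimates that did not pass the test. *Ptx3* (ENSMUSG00000027832; chromosome 3, 66219910 to 66225805, plus strand) encodes pentraxin 3, a multimeric protein needed for a stable cumulus matrix. It had 49.5, 49.3 and 69.5 normalized counts in the controls and 106, 77.5 and 81.6 with DHT. The groups did not overlap, although control replicate 3 came close to DHT replicate 2, and the log2 fold change was 0.65 (SE 0.20, 95% confidence interval 0.20 to 1.10, adjusted p = 0.0705 by limma). *Tnfaip6* (ENSMUSG00000053475; chromosome 2, 52038009 to 52056686, plus strand) encodes TSG-6, which transfers the heavy chains of inter-alpha-inhibitor onto hyaluronan. It had 110, 91.1 and 140 in the controls, with control replicate 3 again the highest of the controls, and 153, 152 and 127 with DHT. The groups overlapped and the log2 fold change was 0.36 (SE 0.17, 95% confidence interval -0.03 to 0.74, adjusted p = 0.235 by limma).

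The hyaluronan-binding proteoglycans had negative estimates that did not pass the test. *Acan* (ENSMUSG00000030607; chromosome 7, 79053483 to 79115099, plus strand) encodes aggrecan, best known from cartilage. It had 95, 58.5 and 46.3 normalized counts in the controls and 17.6, 39.3 and 35.9 with DHT. The groups did not overlap, and the highest library was 2.05 times the lowest in the controls and 2.23 times with DHT. The log2 fold change of -1.10 had a 95% confidence interval from -1.89 to -0.30 (SE 0.35, adjusted p = 0.0834 by limma). *Dcn*, which encodes decorin and is a marker of stroma, was also highest in control replicate 1 and lowest in DHT replicate 1, at 319, 149 and 104 in the controls and 66.5, 106 and 77.3 with DHT (log2 fold change -1.05, adjusted p = 0.102 by limma). The part of stroma in the *Acan* values was not tested. *Dcn* was singled out after its values were seen. The other 4 stroma and theca markers with values were not highest in control replicate 1, although *Pdgfra* (49.9) and *Lum* (19.6) were, like *Dcn*, lowest of all 6 libraries in DHT replicate 1. *Col1a1* was instead lowest in control replicate 1 (1063), where *Dcn* was highest, and *Col1a2* was lowest in control replicate 3 (378). The 4 had log2 fold changes of 0.30 (*Col1a2*), -0.13 (*Col1a1*), -0.24 (*Lum*) and -0.38 (*Pdgfra*), and none of the 5 passed the test.

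*Vcan* (ENSMUSG00000021614; chromosome 13, 89655312 to 89742509, minus strand) encodes versican, the large proteoglycan of the follicle wall and cumulus matrix. It had 983, 1173 and 1484 normalized counts in the controls and 1246, 911 and 917 with DHT. DHT replicate 1 was above 2 of the controls, and the log2 fold change was -0.24 (SE 0.16, 95% confidence interval -0.60 to 0.12, adjusted p = 0.394 by limma).

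Leaving out control replicate 3 raised the number of the 10 genes called from 1 to 3, since *Ptx3* (log2 fold change 0.81, adjusted p = 0.0263 by limma) and *Acan* (-1.32, adjusted p = 0.0463) then passed with *Has2*. That library held the highest control value of *Ptx3* and the lowest control value of *Acan*. Without DHT replicate 2, the library with few oocyte transcripts, the change of *Has2* was 2.37 (adjusted p = 0.00254).

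**Figure D3:**
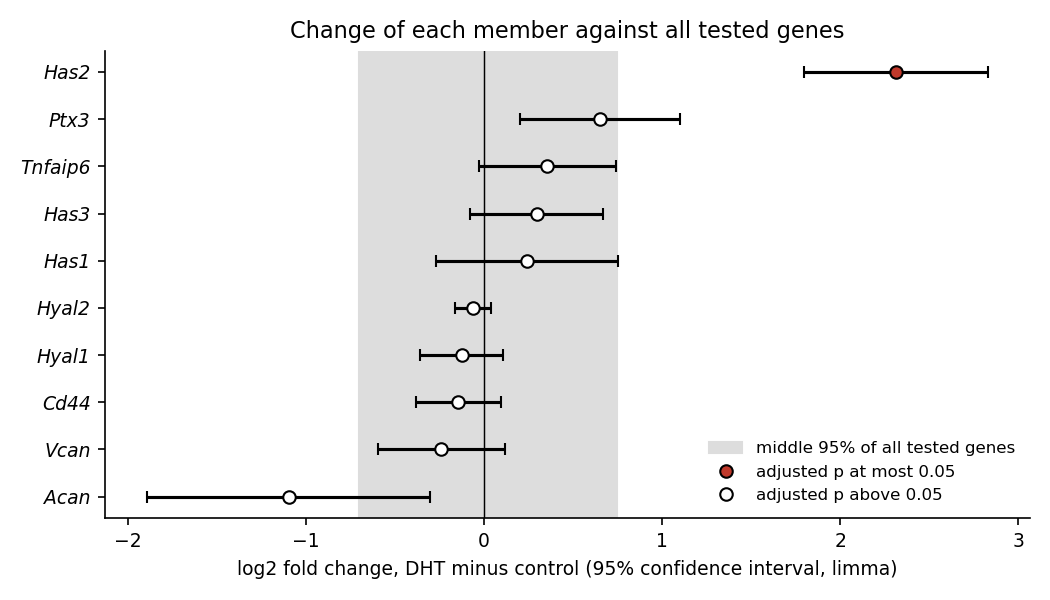
Log2 fold change, DHT minus control, of each of the 10 genes with its 95% confidence interval from limma, filled in red where called, over a grey band that holds the middle 95% of all tested genes (-0.70 to 0.75). Has2 at 2.31 lies well outside the band, Acan at -1.10 lies outside it with an interval that reaches in, and the other 8 lie inside.

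The levels were ordered per kb of exon, the scale on which genes of different length can be compared. In the controls the order of the mean normalized counts per kb was *Hyal2* (662), *Has2* (105), *Vcan* (83.9), *Cd44* (66.5), *Tnfaip6* (66.4), *Hyal1* (63.6), *Ptx3* (20.9), *Has3* (10.2), *Acan* (8.92) and *Has1* (8.33). The place of *Has1* depends on the length used, as its coding transcript is 2.095 kb against 4.52 kb of annotated exon. *Hyal2* stood above and *Ptx3* below their neighbours without overlap of libraries, while each neighbouring pair from *Has2* to *Hyal1* and from *Has3* to *Has1* overlapped. With DHT *Hyal2* (634) and *Has2* (500.5) were each apart from the gene below, and *Has2*, which had overlapped with *Vcan* in the controls, was now far above *Tnfaip6* (84.1) and *Vcan* (70.9). *Acan* (4.14) was then the lowest of the 10. Among the 16251 genes with a length, the per kb level of *Has2* went from percentile 41.9 in the controls to percentile 75.5 with DHT, and that of *Hyal2* was at percentile 81.4 and 80.4.

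Genes around these 10 were examined in 6 lists that together hold 54 tested genes, of which 6 were higher and 9 lower with DHT. That is 27.8% called, against 11.2% of all genes tested. The lists were chosen with earlier results of these data known, so this share cannot be read as a result about the pathway. Called genes were the minority in each list. Of the 15 calls, those of *B3galt6*, *Bcan*, *Btc*, *Chpf*, *Hexa*, *Hmmr* and *Uap1* were each lost on leaving out any of several libraries, and that of *Adamts9* on leaving out DHT replicate 3, with a highest adjusted p by limma over all alternatives of 0.0843 (*Adamts9*) to 0.153 (*Hmmr*). Those of *Gfpt2*, *Ugdh* and *Runx1* were lost without the intensity trend, at an adjusted p by limma of 0.0722, 0.0723 and 0.0736.

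Hyaluronan is built from UDP-glucuronic acid and UDP-N-acetylglucosamine, and of the 7 genes for these precursors 2 rose and 1 fell. *Gfpt2*, which encodes an enzyme at the entry of the hexosamine pathway, had 1220.0, 1545 and 1496 normalized counts in the controls and 1988, 1866 and 1965 with DHT, without overlap. Its log2 fold change was 0.46 (SE 0.08, adjusted p = 0.00839 by limma). *Uap1*, for the enzyme that forms UDP-N-acetylglucosamine, rose by 0.17 (adjusted p = 0.0453 by limma). *Ugdh*, for the enzyme that makes UDP-glucuronic acid, had 3639, 3448 and 3567 in the controls and 2831, 3005 and 3143 with DHT, and fell by 0.25 on the log2 scale (SE 0.05, adjusted p = 0.0102 by limma). The other 4 genes of the list were not called and had log2 fold changes between -0.07 and 0.03. The median log2 fold change of the list was 0.02.

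Among 8 tested genes of 17 for other hyaluronan-binding and link proteins, 2 fell and none rose (median log2 fold change 0.01). *Bcan*, which encodes the proteoglycan brevican, had 168, 201 and 112 in the controls and 73.4, 90.5 and 83.8 with DHT (log2 fold change -0.91, SE 0.21, adjusted p = 0.0239 by limma). *Hmmr*, for a hyaluronan-binding protein that also works at the mitotic spindle, fell by 0.36 (adjusted p = 0.0410 by limma). Among 6 tested genes of 8 for other hyaluronan breakdown, 1 fell (median -0.05). It was *Hexa*, a subunit of lysosomal beta-hexosaminidase, at -0.24 (adjusted p = 0.0234 by limma). *Cemip*, for a protein that takes part in cutting hyaluronan outside the cell, had the highest mean of this list, with 88554 to 102820 normalized counts in the controls and 91321 to 96100 with DHT, and a log2 fold change of -0.06 (SE 0.06, adjusted p = 0.642 by limma). Under quantile normalization it was called, at -0.25 (adjusted p = 0.00897 by limma).

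Chondroitin sulfate chains decorate versican and aggrecan, and of 15 tested genes of 17 for their synthesis 2 fell and none rose (median -0.06). They were *B3galt6*, a linker enzyme, at -0.29 (adjusted p = 0.0251 by limma), and *Chpf*, a chain polymerizing factor, at -0.19 (adjusted p = 0.0242). The ADAMTS proteases that cleave these proteoglycans went in both directions, with 1 of 5 tested genes higher and 1 lower (median 0.23). *Adamts4* had 449, 552 and 439 in the controls and 800.5, 1031 and 1131 with DHT. *Adamts9* had 11929, 11747 and 16228 in the controls and 9424, 8248 and 7733 with DHT, a log2 fold change of -0.64 (SE 0.12, adjusted p = 0.00982 by limma). In both genes the groups were clear of each other.

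The last list holds ligands, receptors and transcription factors known to act upstream of cumulus expansion, and 3 of its 13 tested genes rose and 2 fell (median -0.02). *Pgr*, the progesterone receptor, was low in all libraries, with 25.7, 31.6 and 25.9 normalized counts in the controls and 8.81, 8.73 and 12.0 with DHT, and had a log2 fold change of -1.42 (SE 0.27, adjusted p = 0.00997 by limma). *Btc*, an EGF-like ligand, fell by 0.63 (adjusted p = 0.0372 by limma). *Runx1*, a transcription factor, rose by 0.42 (adjusted p = 0.00773), and *Ptger2*, a receptor for prostaglandin E2, rose by 0.40 (adjusted p = 0.00149). The fifth called gene, *Cebpb*, a transcription factor, rose by 0.32 (adjusted p = 0.00379).

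**Figure D4:**
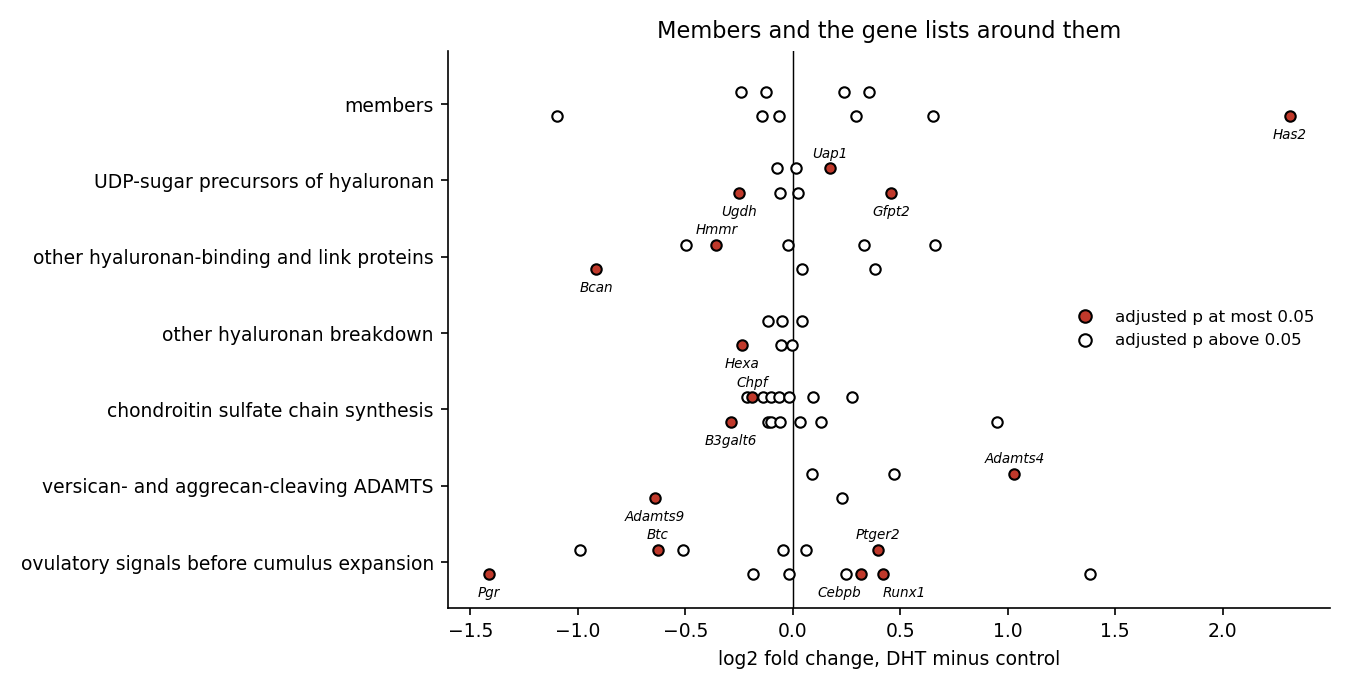
Log2 fold change, DHT minus control, of every tested gene in the set of 10 and in the 6 lists around it, each point a gene, filled in red and named where limma's adjusted p was 0.05 or less. Called genes of the lists lie on both sides of zero, from Pgr at -1.42 to Adamts4 at 1.03, and Has2 at 2.31 lies beyond them all.

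The genes whose profile over the 6 libraries was most like that of *Has2* were found by the root mean square difference of log2(normalized count + 1), each gene centred on its own mean, among all 16292 tested genes. Of the 5 nearest, those described here are *Plekhd1* (0.16), *Slc2a6* (0.31) and *Fmo2* (0.35), against a median of 1.21 over all genes. Each was higher in every DHT library than in any control, which follows from their choice by likeness to *Has2*. *Slc2a6*, which encodes a sugar transporter of the GLUT family, had 7.92, 25.1 and 25.0 normalized counts in the controls and 72.4, 56.7 and 70.7 with DHT. *Fmo2*, for a flavin-containing monooxygenase, had 49.5, 66.0 and 44.5 in the controls and 267, 187 and 184 with DHT. In *Plekhd1* and *Slc2a6*, as in *Has2*, control replicate 1 was the lowest of the controls, while in *Fmo2* it was control replicate 3. The likeness is a description over 6 libraries that share size factors and groups.

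**Figure D5:**
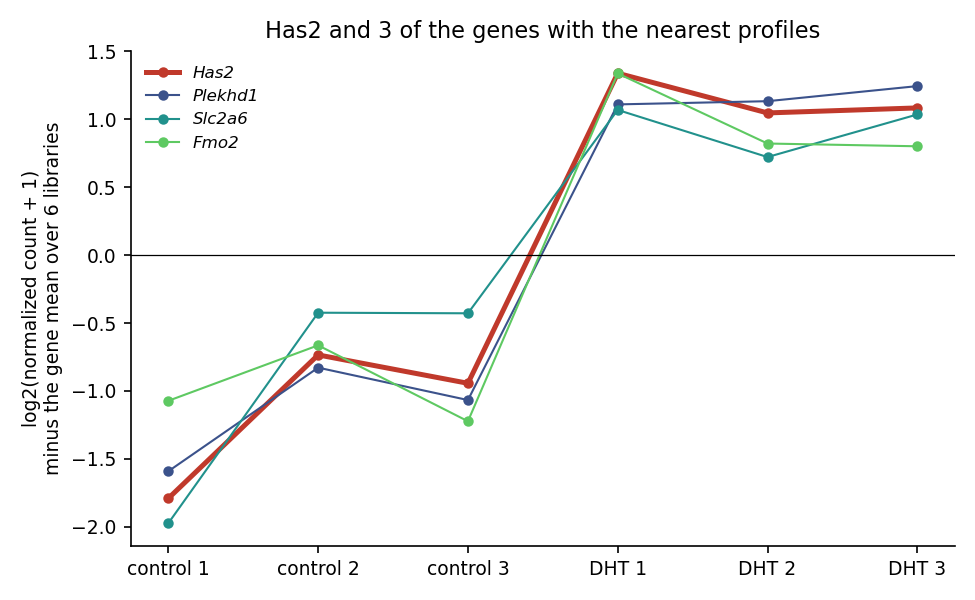
Log2(normalized count + 1) minus the mean of the gene over the 6 libraries, for Has2 (thick red line), Plekhd1, Slc2a6 and Fmo2, where a line joins the values of a gene. All 4 genes lie below zero in the control libraries and above zero in the DHT libraries, and all but Fmo2 are lowest in control replicate 1. The genes beside Has2 were chosen for their likeness to it.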

How the data were processed

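Per the labels, the authors trimmed paired reads of 150 bases with Trimmomatic 0.36, mapped them to GRCm38 with STAR 2.5.2b and counted them with featureCounts of Subread 1.5.2. As signal, the authors deposited a normalized count per gene and library, which is the reads divided by a DESeq2 size factor. Every value was a whole multiple of a step of its library (tolerance 0.01). The deposited fold changes and p-values of the authors' own comparison were not used.

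Values were analysed as log2(value + 1) in limma 3.58.1 (R 4.3.3) with an intensity trend, for genes with a mean of at least 10, without a replicate block. The p-values measure the spread between 3 libraries per group. The fit was tested on simulated data. Exon lengths, overlaps and sequences came from GENCODE annotation of GRCm38. The share of *Has2* was tested with an exact permutation test over libraries.

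The genes, lists and tests were chosen with earlier results of these data known. Named genes were all 10 members, the called genes of each list up to the 4 of largest change (where fewer than 2 were called, the 2 of highest mean), the 5 profiles nearest to *Has2*, genes with overlapping exons and cell type markers. Of the nearest profiles, 2 are not reported here. *Cebpb* was named after its values were seen.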

Additional observations from a re-analysis of the deposited data

How the results depend on the processing

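*Has2* passed the threshold in all 15 alternatives run, with a log2 fold change from 2.00 to 2.52 and an adjusted p by limma from 3.83e-05 to 0.0218. Of the alternatives, a mean of at least 50 left *Has1* and *Acan* untested, and none changed the sign of any of the 10 genes. Leaving out a library gave 1 to 3 of them called, and 1 to 2 with the fold rule. Antisense *Has2os* ranged from -0.16 to 0.36 with a library left out, and turned to -0.06 without control replicate 1 and -0.16 without DHT replicate 1. Over all genes, with 148 higher and 65 lower under the fold rule, a mean of at least 50 gave 89 and 42. Without the intensity trend 501 genes were higher and 303 lower, 40 lower with the fold rule, and 5 genes of the 6 lists were called rather than 15. Leaving out a library gave 581 to 1237 higher and 350 to 857 lower, 95 to 195 and 41 to 91 with the fold rule, and 8 to 18 genes of the lists. Among the list genes, *Adamts4*, *Ptger2*, *Cebpb* and *Pgr* were called in every alternative that tested them. The share of *Has2* differed by 8.31 to 14.3 percentage points with a library left out, by 14.4 without length scaling and by 16.4 with coding transcript lengths, an alternative chosen after seeing the data.

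With the replicate number as a block (replicate block) 633 genes were higher and 357 lower, 9 genes of the lists were called (*B3galt6*, *Btc*, *Chpf*, *Hexa*, *Hmmr* and *Uap1* were not), and the adjusted p of *Has2* was 0.00341. The deviations of same-numbered libraries correlated at 0.0058, 0.067 and -0.24, against a mean of 0.028 over the other pairs. Deviations from a mean of 3 libraries cannot show whether same-numbered libraries came from the same pool of cells. The sources used here do not say whether they did. Sign flips over the 3 pairs gave the share of *Has2* an exact p of 0.25, the smallest they can give. TMM scaling and the count tests of edgeR and DESeq2 were not run, since the deposited values are normalized counts and the reads behind them were only estimated. Precision weights and scaling to library totals were run in their place and chosen after seeing the data. With 3 libraries per group, the calls of *Ptx3* and *Acan* change with a single library.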
